A study of Sus scrofa with 28 samples.

Results

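The comparison described here sets the kidney cortex of 8 FFC-DIA animals against that of 13 FFC animals, 21 of the 28 Göttingen Minipigs assayed. It asks what differed in renal gene expression when diabetes was present on top of obesity. All were castrated males of about 7 months at the start that ate a diet rich in fat, fructose and cholesterol (FFC) for 13 months. In the FFC-DIA animals diabetes was induced with intravenous streptozotocin, a beta cell toxin, given at 60 mg/kg on each of 3 days, and they then received insulin daily. The feeds also differed. The FFC animals ate 2% cholesterol during the first 5 months and 1% afterwards, whereas the FFC-DIA animals ate 1% throughout. The paper also reported a lower body weight in FFC-DIA than in FFC, and early losses of animals mainly from the diabetic groups. Diabetes, streptozotocin, insulin, the early cholesterol content, body weight and survival therefore cannot be told apart in this comparison. The remaining 7 animals (SD) ate a standard diet and serve only as a reference level below. The study ran in 3 staggered cohorts, and the labels used here do not give the cohort of an animal.

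Each animal gave 1 value for each of 77 qPCR assays on left kidney cortex, 73 for kidney genes and 4 for reference genes. The value is the quantification cycle (Cq), the cycle at which the fluorescence of the product passes a threshold, so that a lower Cq stands for more cDNA. Over the kidney genes the median Cq of an animal was 10.4 to 12.1 in FFC-DIA and 10.8 to 13.2 in FFC. Single-cDNA values, in place of a mean over 2 cDNA replicates, stood for 1 FFC-DIA and 2 FFC animals. All 13 assays listed as cell markers gave a Cq in all 21 animals, between 6.5 and 20.4. Among them were the podocyte genes NPHS1 and WT1, the endothelial CDH5, the epithelial CDH1, the macrophage genes CD68, ADGRE1 and MRC1 and the T cell genes CD3E, CD4 and CD8A. The study kept only assays expressed within the dynamic range, so these Cq do not test which cells were present. In bulk cortex, fewer cells of a type and less RNA per cell cannot be told apart.

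The diabetic kidney is known for glomerular and tubular changes in which high glucose, angiotensin II, TGF-beta signalling, matrix deposition and macrophage infiltration take part. Angiotensin-converting enzyme makes angiotensin II, which constricts vessels and acts on tubular transport. TGF-beta drives matrix production by mesangial cells and fibroblasts, and GLUT1, encoded by SLC2A1, carries glucose into mesangial and other renal cells. The cyclin-dependent kinase inhibitor p21, encoded by CDKN1A, halts the cell cycle and is known as a marker of p53 activity, tubular injury and cell senescence.

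The results turn on 6 kidney genes and on the reference genes TBP1 and RPL4. Their primer pairs are given 5′ to 3′ so that each measured transcript can be identified. The 16 primers are 20 to 25 bases long with a GC content of 40% to 60%.
CDKN1A forward: aggaccatgtggacctgttg
CDKN1A reverse: ccggcgtttggagtggtaga
ACE forward: ggacatggagaccgcataca
ACE reverse: gcccacaacagctcctcata
SLC2A1 forward: ctccctgcagtttggctaca
SLC2A1 reverse: gagatgctctccccatagcg
TSP1 forward: ctacaacgtggaccagagagac
TSP1 reverse: gtatctccaatgcggtctgagt
CD68 forward: cgagatctccaaacgcctgt
CD68 reverse: agaggcagcaggatggtttg
TGFB1 forward: gagccagaggcggactacta
TGFB1 reverse: tccgacgtgttgaacagcata
TBP1 forward: aacagttcagtagttatgagccaga
TBP1 reverse: agatgttctcaaacgcttcg
RPL4 forward: caagagtaactacaaccttc
RPL4 reverse: gaactctacgatgaatcttc

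Levels are reported on 2 log2 scales, both with the mean of the FFC animals at 0. For the reference-normalised level, the Cq of a gene was subtracted from the Cq that ACTB, RPL4 and TBP1 had on average in the same animal. The panel-relative level is the level of a gene minus the mean of all 73 kidney genes of the animal, from which the reference genes cancel. A step of 1 on either scale is 2-fold where the product doubles in each cycle. Differences are FFC-DIA minus FFC with the standard error of a difference of means, tested gene by gene with a two-sided exact permutation test over all 203490 ways of choosing 8 of the 21 animals. Benjamini-Hochberg adjustment ran over the 73 genes at 0.05. A gene is said to have risen or fallen only where it passed.

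On the reference-normalised scale CDKN1A rose and ACE and SLC2A1 fell in FFC-DIA. Of the 73 genes 4 passed, 1 higher (1.37% of the genes tested) and 3 lower (4.11%). An unadjusted exact p under 0.05 was reached by 16 genes (21.9%), CDKN1A and 15 genes with lower levels in FFC-DIA (20.5%). On the panel-relative scale 6 genes passed, 3 higher (4.11%) and 3 lower (4.11%), and an unadjusted exact p under 0.05 was reached by 13 (17.8%), 5 higher (6.85%) and 8 lower (11%). CDKN1A, CD68 and TGFB1 rose against the rest of the panel, and ACE, SLC2A1 and TSP1 fell. Both scales called 3 genes, which are CDKN1A, ACE and SLC2A1.

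CDKN1A had the largest mean difference and the smallest p of the panel. The reference-normalised level in FFC-DIA had its lowest value at 1.498, its median at 2.47 and its highest value at 3.90. In FFC the lowest value was -1.01, the median -0.08 and the highest 1.35. All 8 FFC-DIA animals thus lay above all 13 FFC animals, and CDKN1A was the only 1 of the 73 genes whose groups did not overlap on this scale (1.37%). The mean difference was 2.59 ± 0.31 (SE), a 6.01-fold higher level, with an exact permutation p of 4.91e-06, the smallest that the splits can give, and an adjusted exact p of 0.00036. The panel-relative difference was 2.87 ± 0.20 (SE), 7.30-fold, with the same exact p. In the SD animals, given for reference only, CDKN1A lay between -1.01 and 0.47. Raw Cq values show the same separation, with 9.18 to 11.15 in FFC-DIA against 12.10 to 15.52 in FFC. The difference kept its sign with every set of reference genes tried, from 2.06 with RPL4 alone to 3.15 with ACTB alone, and did not pass with RPL4 alone (adjusted exact p = 0.059) or GAPDH alone (adjusted exact p = 0.19).

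The other gene grouped with CDKN1A is GSTP1, a glutathione transferase that conjugates electrophiles. Its reference-normalised difference was 0.17 ± 0.20 (SE) with an exact p of 0.45. Panel-relative, GSTP1 was 0.45 ± 0.16 higher (SE), with an exact p of 0.020 and an adjusted exact p of 0.17. With ACTB alone and with ACTB and TBP1 as reference GSTP1 passed as higher, and with RPL4 alone its difference was -0.35. On the panel-relative scale all 8 FFC-DIA animals were above the FFC mean, against 4 of 8 on the reference-normalised scale.

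ACE, a peptidase of the proximal tubule brush border and of endothelium, fell. The reference-normalised level in FFC-DIA ran from -1.79 through a median of -0.84 to -0.44, and in FFC from -0.91 through a median of -0.13 to 0.81. All 8 FFC-DIA animals were below the FFC median, 3 of them below every FFC animal, and 11 of the 13 FFC animals lay above every FFC-DIA animal. The difference was -0.96 ± 0.20 (SE), a 1.94-fold lower level, with an exact p of 0.00031 and an adjusted exact p of 0.011. Panel-relative it was -0.68 ± 0.21 (SE), 1.60-fold lower, with an adjusted exact p of 0.033. That panel-relative call of ACE held in 4 of 9 other settings and was lost with Bonferroni adjustment, rank sums, limma over 3 groups, the replicate block and animals with both cDNA replicates only. The SD animals had a mean reference-normalised level of -0.76 ± 0.50 (SD, n = 7), beside -0.96 ± 0.41 (SD, n = 8) in FFC-DIA. Panel-relative, the median of ACE was -0.23 in the SD animals and -0.56 in FFC-DIA.

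SLC2A1 fell by a like amount. Its reference-normalised level was lowest at -1.97, with a median of -0.93 and a highest value of -0.38 in FFC-DIA, and ran from -0.91 through a median of 0.11 to 1.06 in FFC. All 8 FFC-DIA animals were below the FFC mean, and 10 FFC animals were above every FFC-DIA animal. The difference was -0.99 ± 0.23 (SE), 1.98-fold lower, with an exact p of 0.00043 and an adjusted exact p of 0.011. Panel-relative it was -0.71 ± 0.21 (SE), 1.63-fold lower, with an adjusted exact p of 0.026, and SLC2A1 passed in 5 of 9 other settings, not with Bonferroni adjustment, rank sums, the replicate block or animals with both cDNA replicates only. FFC-DIA animal 7 had the lowest level of both SLC2A1 (-1.97) and ACE (-1.79), and without it both genes passed on the reference-normalised but neither on the panel-relative scale. The SD animals lay between -0.72 and -0.09 for SLC2A1 on the reference-normalised scale, and between -0.59 and 0.56 on the panel-relative scale. Both ACE and SLC2A1 were lower in FFC-DIA with each set of reference genes tried, but of the single reference genes only TBP1 left both past the threshold. With ACTB alone the differences were -0.40 for ACE and -0.43 for SLC2A1 (adjusted exact p = 0.25 and 0.089). With RPL4 alone they were -1.48 and -1.52 (adjusted exact p = 0.096 and 0.12), and with GAPDH alone -1.16 and -1.19 (adjusted exact p = 0.74 for each).

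TSP1, thrombospondin 1, a matrix glycoprotein that can activate latent TGF-beta, fell relative to the panel. Its panel-relative level in FFC-DIA was lowest at -0.95, with a median of -0.47 and a highest value of 0.06, against -0.49, 0.01 and 0.32 in FFC. In 7 of the 8 FFC-DIA animals it was below the FFC median. The difference was -0.47 ± 0.12 (SE), 1.39-fold lower, with an adjusted exact p of 0.026. The TSP1 call held in 5 of 9 other settings and was lost with Bonferroni adjustment, rank sums, limma over 3 groups and the replicate block. The reference-normalised difference of -0.75 ± 0.21 (SE) had an exact p of 0.0037 and an adjusted exact p of 0.054. The SD animals had a mean reference-normalised level of -0.84 ± 0.62 (SD, n = 7).

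CD68, a lysosomal glycoprotein of macrophages, rose relative to the panel. The panel-relative level in FFC-DIA was lowest at -0.04, with a median of 0.73 and a highest value of 1.43, and in FFC it ran from -0.84 through -0.02 to 0.69. Above every FFC animal lay 4 FFC-DIA animals, and 7 of 8 were above the FFC mean. The difference was 0.72 ± 0.19 (SE), 1.65-fold, with an adjusted exact p of 0.026. CD68 passed in 6 of 9 other settings, not with Bonferroni adjustment, the replicate block or animals with both cDNA replicates only. On the reference-normalised scale the difference was 0.44 ± 0.29 (SE) with an exact p of 0.13. It turned to -0.09 with RPL4 alone as reference, and it passed at 1.00 with ACTB alone (adjusted exact p = 0.0039) and at 0.71 with ACTB and TBP1 (adjusted exact p = 0.039). FFC-DIA animal 6, with a single cDNA value, had the highest CD68 level on both scales.

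TGFB1 rose by a small amount relative to the panel. The panel-relative level was 0.12 at its lowest, 0.17 at the median and 0.55 at its highest in FFC-DIA, and -0.19, -0.05 and 0.39 in FFC. All 8 FFC-DIA animals were above the FFC median, and 9 FFC animals were below every FFC-DIA animal. The difference was 0.25 ± 0.07 (SE), 1.19-fold, with an adjusted exact p of 0.048. On the reference-normalised scale it was -0.03 ± 0.20 (SE) with an exact p of 0.90, and with ACTB alone it was 0.53, so the direction of TGFB1 depends on the scale. The panel-relative call of TGFB1 held in 2 of 9 other settings and with 4 of the 21 animals left out in turn. It was lost with Bonferroni adjustment, rank sums, limma over 2 or 3 groups, the replicate block, animals with both cDNA replicates only and centring on the panel median (adjusted exact p = 0.38).

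**Figure D1:**
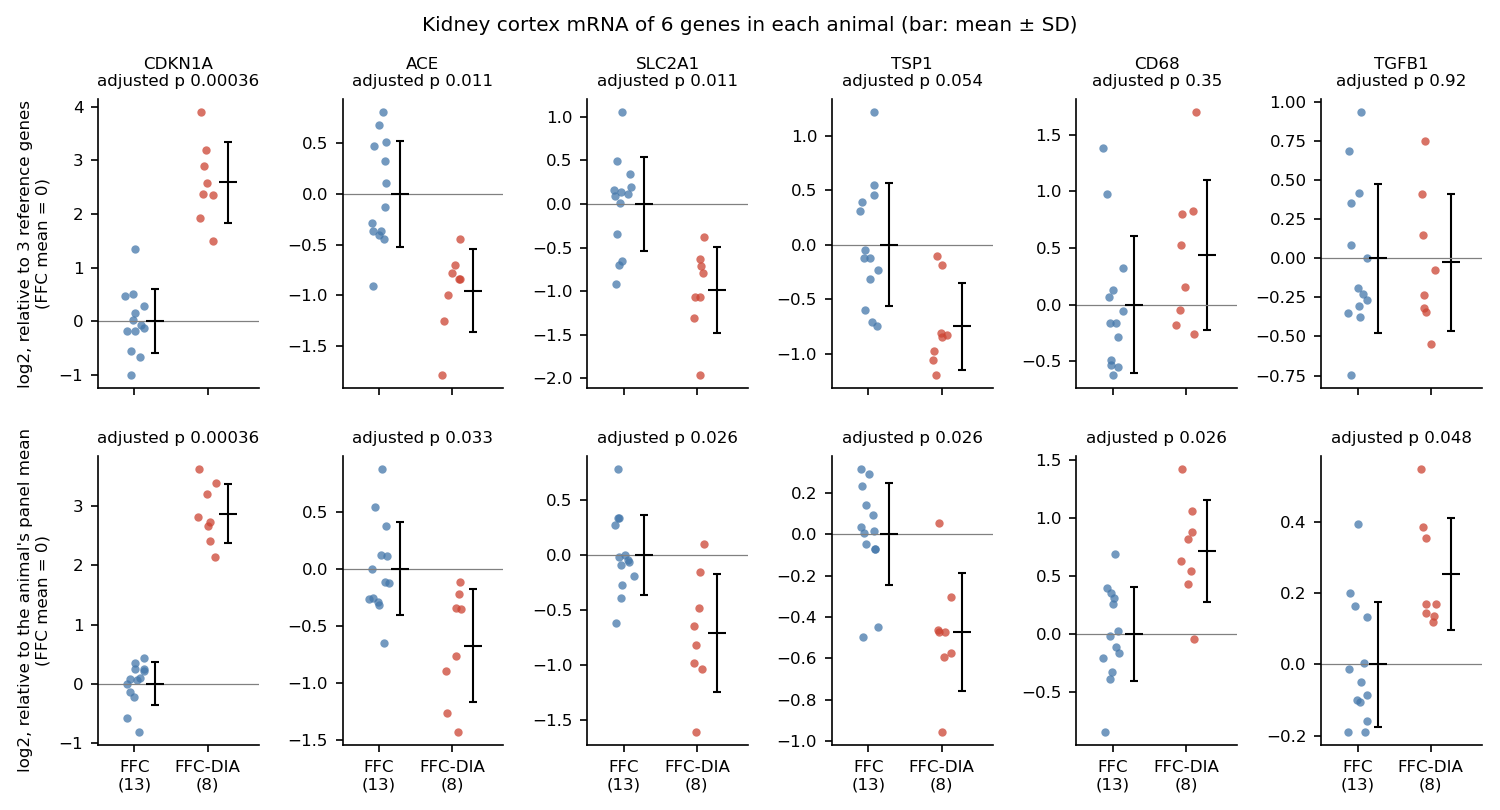
Each point is 1 animal, with FFC (13) in blue and FFC-DIA (8) in red and the mean ± SD beside them; the upper row plots log2 levels relative to 3 reference genes and the lower row those relative to the animal's panel mean, with the FFC mean at 0 and a vertical scale of its own in each panel. The CDKN1A groups do not overlap in either row, while those of CD68 and TGFB1 overlap in both rows and passed the test in the lower row (adjusted p 0.026 and 0.048) and not in the upper (0.35 and 0.92).

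Most of the panel lay lower in FFC-DIA when set against the reference genes. Of the 73 differences 60 were below 0 and 13 above, with a median of -0.33 and a mean of -0.28. The panel mean of an animal averaged -0.28 ± 0.42 (SD, n = 8) in FFC-DIA, from -0.91 to 0.27, and 0 ± 0.46 (SD, n = 13) in FFC, from -0.64 to 1.12, so the groups overlap. Panel-relative, 32 genes were higher and 41 lower, since this scale takes the mean difference of -0.28 from every gene. It also had the smaller spread. The pooled SD between animals of a group had a median of 0.64 over the genes on the reference-normalised scale and of 0.45 on the panel-relative scale, and it was smaller on the latter for 62 genes.

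**Figure D2:**
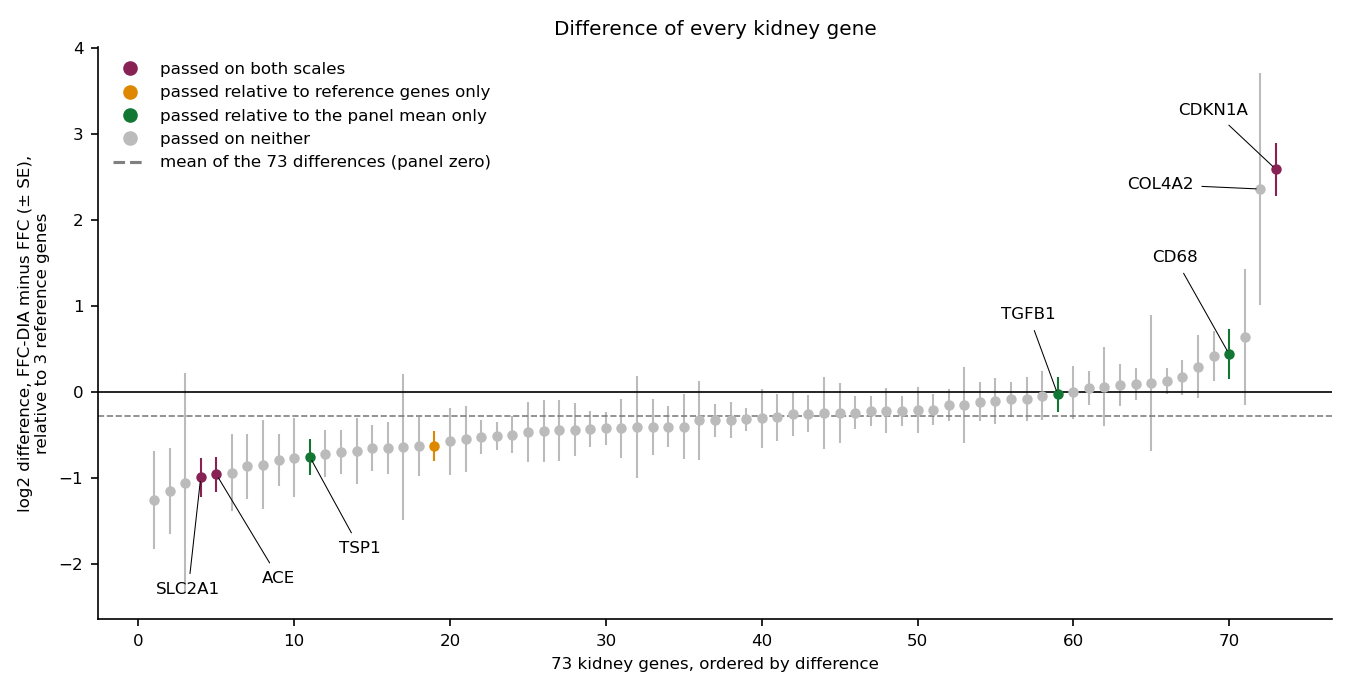
The 73 kidney genes are ordered by their log2 difference between FFC-DIA and FFC relative to 3 reference genes, each with its SE, and colours give the scale on which a gene passed the adjusted test. Most points lie below 0 around the dashed line at -0.28, CDKN1A lies at 2.59, and COL4A2, at 2.36, has an SE of 1.35 and did not pass.

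The common shift depends on which reference genes are used. The Cq of ACTB, cytoskeletal actin, was 5.70 ± 0.46 (SD, n = 8) in FFC-DIA and 5.80 ± 0.59 (SD, n = 13) in FFC, a difference of -0.10 ± 0.23 (SE, exact p = 0.68). For TBP1, the TATA-binding protein of basal transcription, the difference was -0.69 ± 0.23 (SE, exact p = 0.016, adjusted over the 4 reference genes 0.062). For RPL4, a ribosomal protein, the difference was -1.19 ± 0.51 (SE, exact p = 0.037, adjusted 0.075), with 6.88 to 10.19 in FFC-DIA and 7.25 to 11.62 in FFC. GAPDH, a glycolytic enzyme, differed by -0.86 ± 0.60 (SE, exact p = 0.20). None of the 4 passed after adjustment, and all 4 were earlier in FFC-DIA. The median difference over the kidney genes was 0.23 with ACTB alone, with 53 genes higher, and -0.36 with TBP1 alone, -0.53 with GAPDH alone and -0.86 with RPL4 alone, with 3 genes higher. The part of the reference genes in the common shift cannot be told apart from that of the kidney genes.

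**Figure D3:**
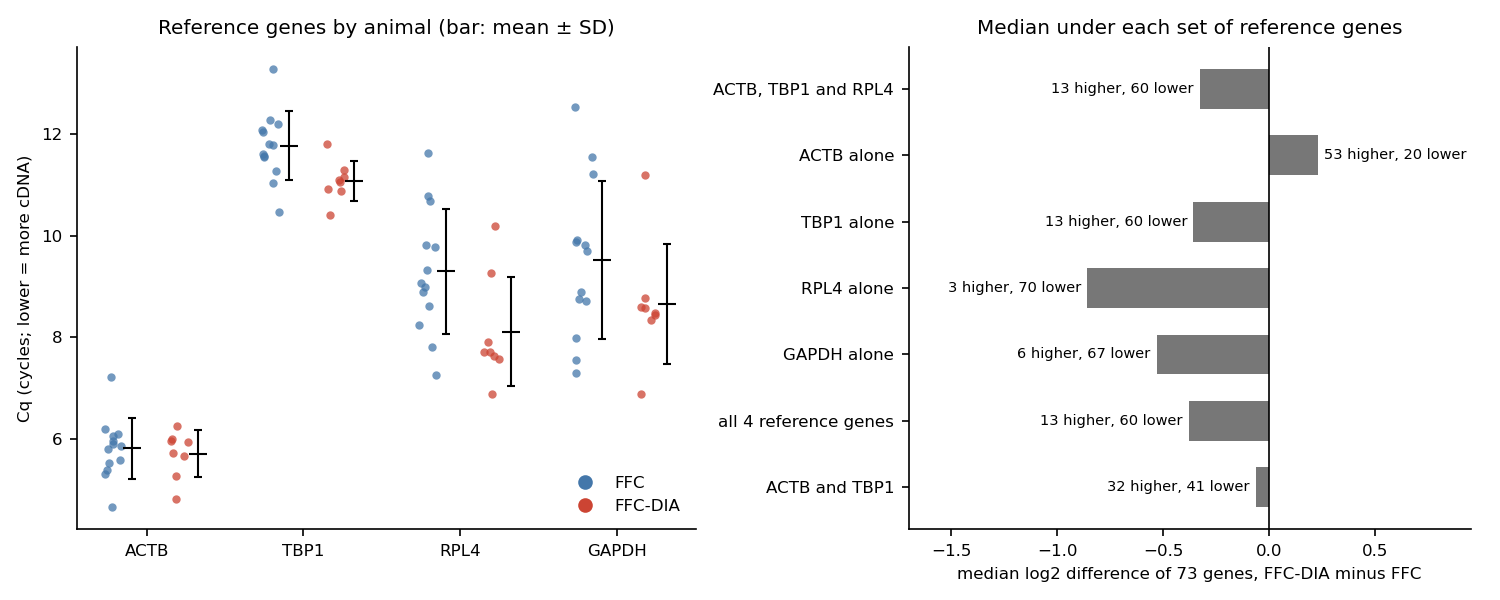
On the left each point is the Cq in cycles of 1 reference gene in 1 animal, by group, with the mean ± SD, and on the right bars give the median log2 difference of the 73 kidney genes under each set of reference genes with the number of genes higher and lower in FFC-DIA. Cq differs least between groups for ACTB (-0.10) and most for RPL4 (-1.19), and the median runs from 0.23 with ACTB alone to -0.86 with RPL4 alone.

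The renin-angiotensin list holds 5 assays, all lower in FFC-DIA on both scales, where 60 of the 73 genes were lower reference-normalised and 41 panel-relative. Of the 5, 2 passed on the reference-normalised and 1 on the panel-relative scale, against 3 of 73 called lower (4.11%) on each. Their median difference was -0.62 against -0.33 over all 73 genes, and panel-relative -0.34 against -0.05. AGT, angiotensinogen, the precursor of the angiotensins, had a reference-normalised difference of -1.15 ± 0.50 (SE, exact p = 0.037, adjusted exact p = 0.21). Its level was -2.72 to 0.63 in FFC-DIA and -2.38 to 1.67 in FFC, so the ranges largely coincide. Panel-relative the difference of AGT was -0.86 ± 0.38 (SE, exact p = 0.042).

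In the list of glucose transport, hypoxia and VEGF, 1 of 4 genes passed on both scales, SLC2A1, beside 4 of the 73 on the reference-normalised and 6 on the panel-relative scale. HIF1A, the oxygen-regulated transcription factor subunit, differed by -0.31 ± 0.13 (SE, exact p = 0.042, adjusted exact p = 0.21) and panel-relative by -0.03 ± 0.10 (SE). With ACTB alone as reference the difference of HIF1A was 0.24, and with TBP1 alone HIF1A passed as lower. The median of the list was -0.37, and panel-relative -0.09.

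The 5 genes of the TGF-beta and BMP list had a reference-normalised median of -0.51, with all 5 below 0, as were 60 of the 73 genes. None passed on that scale, beside 4 of the 73. SMAD4, the common partner of the receptor-activated SMADs, was at -0.51 ± 0.17 (SE, exact p = 0.013, adjusted exact p = 0.15), and panel-relative at -0.23 ± 0.09 (SE, exact p = 0.022). With ACTB alone it was at 0.05. GREM1, an antagonist of bone morphogenetic proteins, had a difference of -1.25 ± 0.57 (SE, exact p = 0.047, adjusted exact p = 0.21) and a panel-relative one of -0.97 ± 0.41 (SE, exact p = 0.039). Its mean Cq of 19.6 is among the 7 above 18, where few template molecules make a Cq less precise. TGFB1 was the only gene of the 5 to pass on the panel-relative scale, where 6 of the 73 passed, and SMAD4 and GREM1 lay on the other side of 0 there.

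Of the 16 matrix and myofibroblast genes none passed on the reference-normalised scale and 1, TSP1, on the panel-relative scale, beside 4 and 6 of the 73 genes. A share of 1 in 16 is near that of the whole panel. The median difference was -0.24 with 14 genes below 0 (60 of the 73), and panel-relative it was 0.04 with 9 above 0 (32 of the 73). ACTA2, the smooth muscle actin of vessels and myofibroblasts, had a reference-normalised level of -1.83 to 0.10 in FFC-DIA and of -1.15 to 1.34 in FFC. Its difference was -0.71 ± 0.27 (SE, exact p = 0.021, adjusted exact p = 0.17). Panel-relative, all 8 FFC-DIA animals were below the FFC mean, and the difference of ACTA2 was -0.43 ± 0.14 (SE, exact p = 0.011, adjusted exact p = 0.12). CTGF, a matricellular protein induced by TGF-beta, was at 0.05 ± 0.20 (SE, exact p = 0.82), and panel-relative at 0.33 ± 0.14 (SE, exact p = 0.052), while with RPL4 alone it was at -0.48.

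Of the 4 podocyte genes none passed on either scale, beside 4 and 6 of the 73 genes. Their median was -0.18, panel-relative 0.10. NPHS1, nephrin of the slit diaphragm, was at -0.94 ± 0.45 (SE, exact p = 0.055, adjusted exact p = 0.22) and panel-relative at -0.66 ± 0.30 (SE, exact p = 0.052). In 7 of 8 FFC-DIA animals its level was below the FFC mean on both scales. WT1, a transcription factor of podocytes, was at -0.04 (exact p = 0.88) and panel-relative at 0.24 (exact p = 0.53). Of the 4 genes 3 were below 0 on the reference-normalised scale, beside 60 of 73. Panel-relative 2 were above and 2 below, beside 32 and 41 of 73. ACTN4, an actin crosslinker of the podocyte foot process that is also found in other cells, was at -0.33 ± 0.19 (SE, exact p = 0.12) and at 0.23 with ACTB alone.

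No chemokine passed on either scale, beside 4 and 6 of the 73 genes. All 6 were below 0 on the reference-normalised scale, beside 60 of 73, with a median of -0.37 (-0.09 panel-relative). CXCL12, the ligand of CXCR4, differed by -0.52 ± 0.20 (SE, exact p = 0.014, adjusted exact p = 0.15) and CXCL2, a neutrophil attractant, by -0.79 ± 0.30 (SE, exact p = 0.033, adjusted exact p = 0.20). For CXCL2 the level of all 8 FFC-DIA animals was below the FFC median. With ACTB alone the CXCL12 difference was 0.03.

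The 5 genes of the TNF and interleukin list, cytokines and TNF receptors, were all below 0 on the reference-normalised scale, beside 60 of 73. None passed on either scale, beside 4 and 6 of the 73 genes. The list median was -0.41 and panel-relative -0.13. IL6 was at -0.65 ± 0.26 (SE, exact p = 0.023, adjusted exact p = 0.17), with a panel-relative difference of -0.37 ± 0.26 (SE, exact p = 0.18). The TNF receptor TNFRSF1A was at -0.24 ± 0.19 (SE, exact p = 0.26), at 0.04 panel-relative and at 0.32 with ACTB alone.

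Among the 6 genes of innate sensing, complement and injury none passed on either scale, beside 4 and 6 of the 73 genes. The list median was -0.18 and panel-relative 0.10. TLR4, the endotoxin receptor, was at -0.69 ± 0.26 (SE, exact p = 0.020, adjusted exact p = 0.17), and panel-relative 5 FFC-DIA animals were below every FFC animal while 2 were above the FFC mean. C3, the central complement component, was at 0.29 ± 0.36 (SE, exact p = 0.42), and panel-relative at 0.57 ± 0.25 (SE, exact p = 0.036, adjusted exact p = 0.22). Panel-relative C3 was above the FFC median in all 8 FFC-DIA animals, and with RPL4 alone as reference the difference was -0.23. LGALS3, galectin 3, was at -0.43 ± 0.21 (SE, exact p = 0.066), and at 0.13 with ACTB alone.

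The macrophage and T cell list (7 genes) had a median of -0.26, panel-relative 0.02, and CD68 was its only gene to pass, on the panel-relative scale alone, where 3 of the 73 genes (4.11%) were called higher. ADGRE1, an adhesion receptor of macrophages, was at -0.50 ± 0.22 (SE, exact p = 0.047, adjusted exact p = 0.21), on the other side of 0 from CD68, and at 0.06 with ACTB alone. Panel-relative ADGRE1 differed by -0.22 ± 0.18 (SE, exact p = 0.27). MRC1, the mannose receptor of macrophages, differed by 0.06 (exact p = 0.87) and panel-relative by 0.34 (exact p = 0.27). The T cell genes CD3E, CD4 and CD8A were at -0.44, -0.26 and 0.08 on the reference-normalised scale, with exact p-values of 0.17, 0.32 and 0.76. The mean Cq of CD8A was late, at 18.4. ADGRE1 and MRC1 did not pass on either scale, and the part of macrophage numbers in the CD68 level was not tested.

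The endothelium, epithelium and vascular tone list (6 genes) lay wholly below 0 on the reference-normalised scale, beside 60 of 73, with a median of -0.43, and panel-relative at -0.15 with 2 above 0. No member passed. NOS3, the endothelial nitric oxide synthase, was at -0.86 ± 0.38 (SE, exact p = 0.032, adjusted exact p = 0.20), and panel-relative at -0.58 ± 0.24 (SE, exact p = 0.023, adjusted exact p = 0.17). It was below the FFC median in 7 of 8 FFC-DIA animals on both scales, and with a difference of -0.25 (exact p = 0.28) the endothelial cadherin CDH5 did not pass. VCAM1, a leukocyte adhesion molecule, was at -0.63 ± 0.34 (SE, exact p = 0.11), with 1 FFC animal as high as 3.31.

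**Figure D4:**
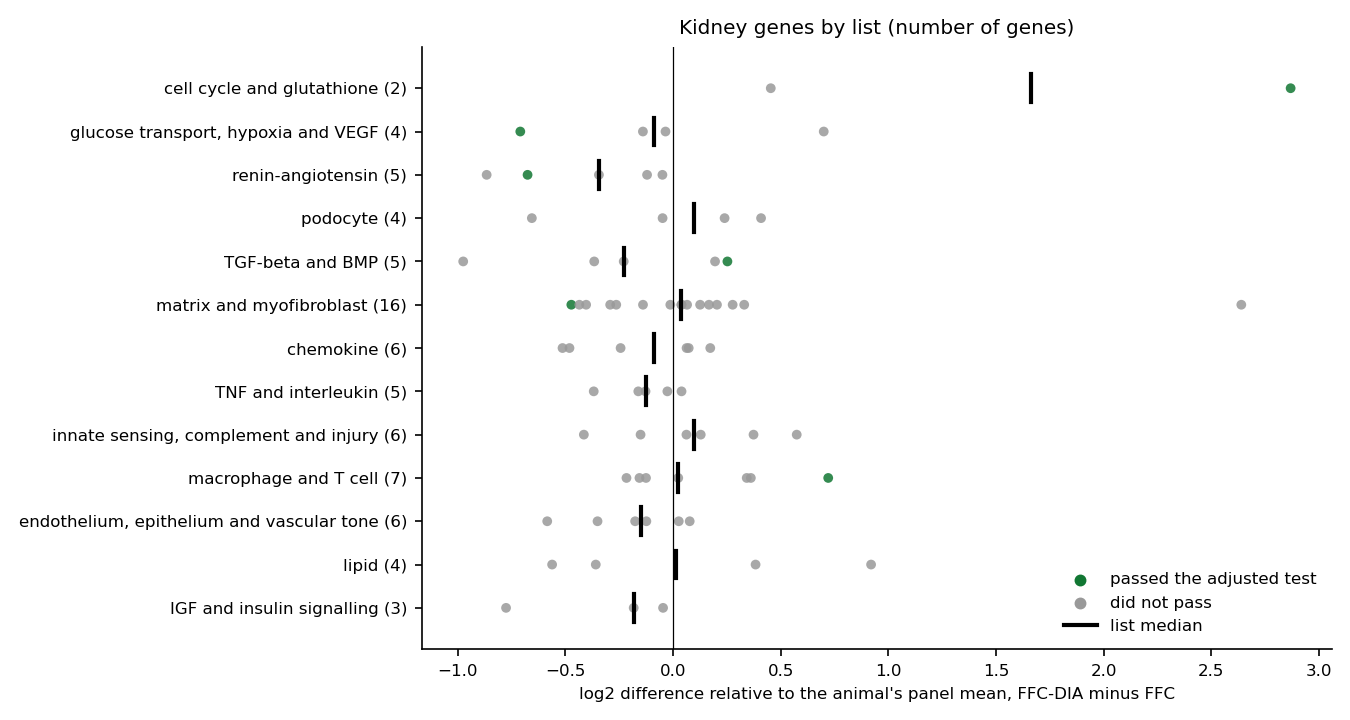
Points are the 73 kidney genes by list, at their log2 difference between FFC-DIA and FFC relative to the animal's panel mean, with green for genes past the adjusted test and a black bar at the list median. List medians lie between -0.34 (renin-angiotensin) and 0.10 except for the pair of CDKN1A and GSTP1 at 1.66, and 6 genes from 6 lists passed.

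No gene of the lipid list (4) or of IGF and insulin signalling (3) passed on either scale, beside 4 and 6 of 73. The list medians were -0.27 and -0.46, panel-relative 0.01 and -0.18. ENPP1, a membrane enzyme that can inhibit the insulin receptor, was at -0.33 ± 0.21 (SE, exact p = 0.16), and at 0.23 with ACTB alone. IGFBP7, which binds insulin-like growth factors, was at -0.46 ± 0.35 (SE, exact p = 0.22), and at 0.09 with ACTB alone. ACOX2, a peroxisomal oxidase, was at 0.64 ± 0.80 (SE, exact p = 0.40) and ANGPTL7, an angiopoietin-like secreted protein, at -0.84 ± 0.51 (SE, exact p = 0.10). IGFBP7, ACOX2 and ANGPTL7 each had a mean Cq above 18. ACOX2 ran from -1.33 to 3.34 in FFC-DIA and from -1.17 to 3.13 in FFC.

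Wide spread between animals of 1 group marks the genes COL4A2, IGF1 and APOB, with pooled SDs of 2.86, 2.82 and 1.93 against a median of 0.64. COL4A2, a chain of basement membrane collagen IV, fell into separate levels with a gap of 4.65 between them. In FFC-DIA 4 of 8 animals lay above the gap, and in FFC 2 of 13. The mean difference of COL4A2 was 2.36 ± 1.35 (SE), nearly that of CDKN1A, with an exact p of 0.074 and an adjusted exact p of 0.25. Its Cq ran from 8.69 to 17.30 in FFC-DIA and from 10.00 to 18.50 in FFC, and what separates the levels was not tested.

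IGF1, the growth factor itself, also fell into separate levels, with a gap of 3.70. Below it lay 3 of 8 FFC-DIA and 3 of 13 FFC animals, and the difference was -1.06 ± 1.28 (SE, exact p = 0.40). APOB, the apolipoprotein of low density lipoprotein, ran from -1.73 to 2.45 in FFC-DIA and from -4.41 to 2.58 in FFC, with a difference of 0.10 ± 0.79 (SE, exact p = 0.91). For these 3 genes the spread exceeded any difference between the group means.

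**Figure D5:**
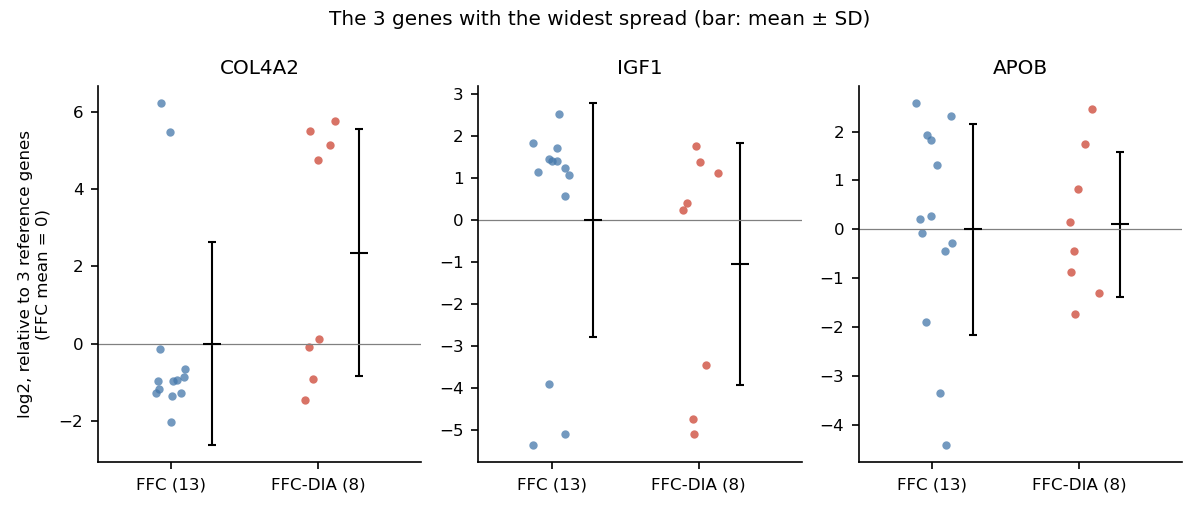
Points are animals (FFC blue, FFC-DIA red) at their log2 level relative to 3 reference genes with the FFC mean at 0, and bars give the mean ± SD, for the 3 genes with the largest pooled SD. COL4A2 and IGF1 split into separate levels in both groups, with 4 of 8 FFC-DIA and 2 of 13 FFC animals at the high level of COL4A2, while APOB spreads without such a split.

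Both scales called CDKN1A, ACE and SLC2A1 in these 21 animals, and the number of panel-relative calls moved with single animals. Without FFC-DIA animal 5, 6 or 7 the panel-relative count of 6 dropped to 1, which was CDKN1A each time, and without FFC-DIA animal 8 it was 3. The panel-relative differences themselves moved less, from -0.76 to -0.57 for ACE, -0.82 to -0.58 for SLC2A1, -0.55 to -0.40 for TSP1 and 0.62 to 0.83 for CD68 with any 1 animal left out. Their highest adjusted exact p in these fits was 0.094, 0.073, 0.062 and 0.062, and ACE passed in 14, SLC2A1 in 17 and TSP1 and CD68 each in 18 of the 21. The reference-normalised count stayed between 4 and 6 with any 1 animal left out, and CDKN1A, ACE and SLC2A1 passed in all 21 such fits. TGFB1 passed panel-relative in 4 of the 21. Among animals with both cDNA replicates only, the panel-relative count was 2, CDKN1A and TSP1, and the reference-normalised count 4.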

How the data were processed

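Kidney cortex RNA of 21 animals (8 FFC-DIA, 13 FFC; groups from the sample labels) was compared. The authors reverse-transcribed each RNA in 2 cDNA replicates, pre-amplified the cDNA, measured it with EvaGreen on a microfluidic array, checked melting curves and averaged the replicates kept. The authors deposited the Cq of each assay, treated here as a score in cycles, without normalization; every per-sample column matched 1 label. A second deposited table, with fold changes as linear ratios against SD animals, was not used. Levels are the average Cq of the reference genes of the methods (ACTB, RPL4, TBP1) minus the gene's Cq, or the same minus the animal's mean over 73 kidney genes. A factor of 2 per cycle was assumed without efficiency correction, which scales differences of assays that amplify less. Cq gives no read depth, and the number of animals limits precision.

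Exact permutation tests ran in Python 3.11.15 with numpy 2.4.6 and were tested on simulated data. Genes are named if called on either scale, among the 10 next by exact p on either scale, among the 2 smallest p of 1 of 13 lists that partition the panel, or among the 3 with the widest spread. Genes and lists were chosen with earlier results of these data known. Some genes are kept in all counts but not reported here. Assay names are printed as deposited, and 72 of 77 are symbols in pig RefSeq (Sscrofa11.1). The exceptions are TBP1, TSP1, VIM1, END1 and GSTP1. Alternatives were Bonferroni adjustment, removal of assays whose mean Cq exceeds 18, mean linear quantities, rank sums, limma 3.58.1 (R 4.3.3) with 2 or 3 groups, blocks by replicate number or by the leading digits of the animal numbers (animal-number series; whether these mark cohorts is not stated), animals with both cDNA replicates, other reference genes, other centring and each animal left out.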

Additional observations from a re-analysis of the deposited data

Results flagged for a closer look

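In the FFC-DIA group of 8 animals, GAPDH had 1 value apart from the others. Animal 6 had a Cq of 11.2, against 6.88 to 8.76 in the other 7, and its gap to the nearest of them took 0.564 of the whole range, past Dixon's critical value for 8 animals. This animal's values come from a single cDNA replicate. GAPDH is not among the 3 reference genes of the main scale, and animal 6 also had the latest RPL4 of the group at 10.19. The 4 reference genes were checked by Cq and the 32 named kidney genes by reference-normalised level, and of these 36 only GAPDH was past that value, where chance gives about 1 in 20. The Cq of the kidney genes was not checked.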

How the results depend on the processing

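The sign of the CDKN1A, ACE, SLC2A1 and TSP1 differences was the same in every alternative run. The count of 4 genes on the reference-normalised scale became 7 with ACTB alone (7 higher), 9 with TBP1 alone (1 higher, 8 lower), 1 with RPL4 alone (lower, neither ACE nor SLC2A1) and 0 with GAPDH alone (3 genes at an unadjusted exact p under 0.05), so the split of higher against lower calls depends on the reference gene. The 8 lower with TBP1 alone included SMAD4, HIF1A, TLR4 and ACTA2. With ACTB and TBP1 the count was 6 (3 higher, 3 lower), with GSTP1 among those higher. SLC2A1 did not pass with all 4 reference genes (adjusted exact p = 0.072). The panel median of -0.33 turned to 0.23 with ACTB alone and moved to -0.86 with RPL4 alone. The count of 6 on the panel-relative scale became 1 with Bonferroni adjustment, 2 with rank sums, 3 with limma over 3 groups and 2 with only animals that had both cDNA replicates, and 1 to 6 with each animal left out in turn. With the replicate number as a block (8 pairs, 256 sign flips, smallest possible exact p 0.0078) the count was 0 on both scales, with 15 and 14 genes at an unadjusted exact p under 0.05. Fewer animals and fewer possible p-values enter that fit. Deviations of animals with the same number correlated at -0.48 to -0.10, and whether the numbers carry an order or a cohort was not tested. With ACTB alone the differences turned to 0.049 for SMAD4, 0.034 for CXCL12, 0.24 for HIF1A, 0.061 for ADGRE1, 0.13 for LGALS3, 0.23 for ACTN4, 0.23 for ENPP1, 0.095 for IGFBP7, 0.32 for TNFRSF1A and 0.53 for TGFB1. With RPL4 alone they turned to -0.088 for CD68, -0.23 for C3, -0.35 for GSTP1, -0.48 for CTGF and -0.43 for APOB, and with GAPDH alone to -0.027 for GSTP1, -0.15 for CTGF and -0.10 for APOB. With ACTB and TBP1 they were 0.024 for TNFRSF1A and 0.24 for TGFB1, and centred on the panel mean 0.040 and 0.25. The replicate block gave -0.072 for GSTP1 and 0.025 for TGFB1, and the animal-number series as a block 0.079 for TGFB1. Mean linear quantities gave -0.012 for CTGF and -0.23 for APOB, and the mean rank difference of APOB was -0.81. With each animal left out, CTGF ran from -0.019 to 0.15, TGFB1 from -0.14 to 0.050 and APOB from -0.26 to 0.37. The cause of these changes was not tested.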
